A study of Mus musculus with 20 samples.

Results

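The clustered protocadherins are neuronal adhesion genes that lie side by side on mouse chromosome 18. They were chosen by symbol, as every gene named Pcdha, Pcdhb, Pcdhga, Pcdhgb or Pcdhgc with a number, which gave 58 of the 48709 genes counted. The alpha cluster held 14 members (Pcdha1 to Pcdha12, Pcdhac1 and Pcdhac2), the beta cluster 22 (Pcdhb1 to Pcdhb22) and the gamma cluster 22 (12 of type A, 7 of type B and the C-type members Pcdhgc3, Pcdhgc4 and Pcdhgc5). All lay on the plus strand between positions 36930184 and 37841873 of the mm10 build, a span of 911.7 kb. Their RNA was measured by RNA-seq in the right hippocampus of 20 young adult C57BL/6 mice (C57BL/6J in the study's methods), with 5 samples in each of 4 groups, namely females and males of dams that inhaled filtered air (control) and females and males of dams that inhaled nPM. nPM is nano-sized particulate matter collected from urban air and re-aerosolized, and dams of the nPM groups breathed it from gestational day 2 until birth, in sessions of 5 h on 3 days of each week. The labels give a dose of 300 mg/m3, where the study's methods give the unit as μg. Females were 17.71 to 18.29 weeks old and males 18.57 to 19.14 weeks, so that every male was older than every female and sex and age cannot be told apart. Batches of collection and sequencing were not given, so a batch that followed sex could not be told apart from it either. The methods give 5 litters per exposure group, fewer than the mice sequenced per exposure, so some of these shared a dam. The litter of each sample was not given in the sources used here. The methods describe EdU injections, a label of dividing cells, for male mice, and add that all animals received them. If that means all males alone, EdU cannot be told apart from sex either.

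Clustered protocadherins are cadherin-like proteins of the neuronal surface that bind the same isoform on a facing membrane. Each neuron switches on a small, largely random set of promoters, which gives it a surface identity used in dendrite self-avoidance and in the wiring of neighboring cells. In the alpha and gamma clusters each first exon, with its own promoter, encodes the extracellular, transmembrane and proximal cytoplasmic parts of a protein and is spliced to constant exons shared by the whole cluster, whereas each beta gene is a separate single-exon gene. Promoter choice depends on DNA methylation, on the insulator protein CTCF and on the cohesin complex. The C-type members at the end of the alpha and gamma clusters are used more constitutively than the others. Pcdhac2 serves the tiling of serotonergic axons, and Pcdhgc4 is the isoform on which survival of cortical interneurons depends.

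The shared exons set what the counts can show. In the Gencode M21 annotation, which uses the same build and gave all 58 members the exon length of the deposited table, the 14 alpha members had 2860 exon bases in common and the 22 gamma members 2116, while the beta members had 0 in common and only Pcdhb21 and Pcdhb22 overlapped. Gm37013, Gm37388, Gm38182 and Gm42416, gene models with 0 exon bases of their own on the plus strand, had 0 counts over the 20 samples. Pcdhga10, whose own exon is wholly covered by the antisense gene Gm26672, nevertheless had 204 to 507 counts per sample. These values are those of counts that kept to the strand and left out reads lying over several genes of that strand. On that reading a count of an alpha or gamma member came from its own variable exon and transcripts of a cluster could not be assigned through the shared 3′ exons. Pcdha4, which overlaps Gm42416 as well as the shared exons, was left with 494 such bases, and its counts were 4 to 20 per sample. Variable exons of neighboring members are similar in sequence, and the treatment of reads with several alignments was not given in the sources used here, so members may also have exchanged or lost reads. Of the 2 genes deposited under the symbol Pcdha11, ENSMUSG00000007440.10 is Pcdha10 in the RefSeq gene table and is so called here.

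Between 19092067 and 38663408 reads were counted on genes per sample, of which 14402 to 26429, or 0.0579% to 0.0818%, fell on the members. A count of 0 allows up to 3 counts, 0.0776 to 0.157 CPM (counts per mega-count of the library, after TMM scaling) at these depths, and such limits cover counting error only. Of the members, 57 passed the filter on low counts together with 19797 genes in all, and Pcdhgb8, a polymorphic pseudogene with 1 to 15 counts per sample, did not. All 8 defining markers of the hippocampus (Prox1, Fibcd1, Grik4, Neurod2, Zbtb20, Lhx2, Bcl11b and Wfs1) were detected, with a summed level of 1115 to 1883 CPM in females and 811 to 1583 CPM in males. Markers of choroid plexus, an epithelium next to the hippocampus, were uneven: their sum was 46.4 to 8288 CPM in females and 32.7 to 7384 CPM in males, and it was over 1000 CPM in 7 libraries (control males 2, 4 and 5, nPM females 1 and 5, nPM males 2 and 3). Control male 1 and nPM female 4 stood apart on principal components after the first, as did nPM female 1, which was among those 7 libraries. Summed markers of striatum, another brain region, reached 604 CPM in nPM females (median 153), against at most 179 CPM in control females and 202 CPM in males. Results are therefore also given without the libraries rich in choroid plexus markers, and without control male 1 and nPM female 4, where a call rested on them. In these bulk samples, fewer cells of a type and less RNA per cell cannot be told apart.

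Of the 5 C-type members, 3 had the highest levels of all clustered protocadherins in the hippocampus. Levels were compared as CPM per kb of unshared exon, the exon bases that no other gene holds on the same strand. The level of Pcdhgc5 was 15 ± 2.14 (SD, n = 20), that of Pcdhgc3, a C-type isoform linked to dendrite arborization, was 14 ± 2.28, and that of Pcdhac2 was 11.5 ± 1.15. The spreads of Pcdhgc5 and Pcdhgc3, first and second in order, overlapped, and the 2 were not compared within samples. Pcdhga11 followed with a level of 9.16 ± 1.14 and Pcdhga3 with 6.74 ± 1.03. The remaining C-type members were lower, with a level of 3.43 ± 0.632 for Pcdhgc4 and 2.22 ± 0.436 for Pcdhac1. The median level over the 58 members was 2.72, and the lowest were Pcdhgb8 with 0.0882 ± 0.0513 and Pcdhb1 with 0.128 ± 0.0558. With the whole annotated length as divisor, shared exons included, the level of Pcdhgc5 was 9.03. With exon bases free of genes on either strand as divisor, the level was 26.0 for Pcdhgc3 and 19.2 for Pcdhga11, so that the order of the highest members depended on the divisor, as did the leaders of the alternate alpha members (Pcdha11 with 6.06, Pcdha12 with 3.67) and of the beta members (Pcdhb12 with 9.45, Pcdhb9 with 5.44). On the reading that counts kept to the strand, this divisor leaves out bases that gave counts. It then overstates members with antisense neighbors.

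**Figure D1:**
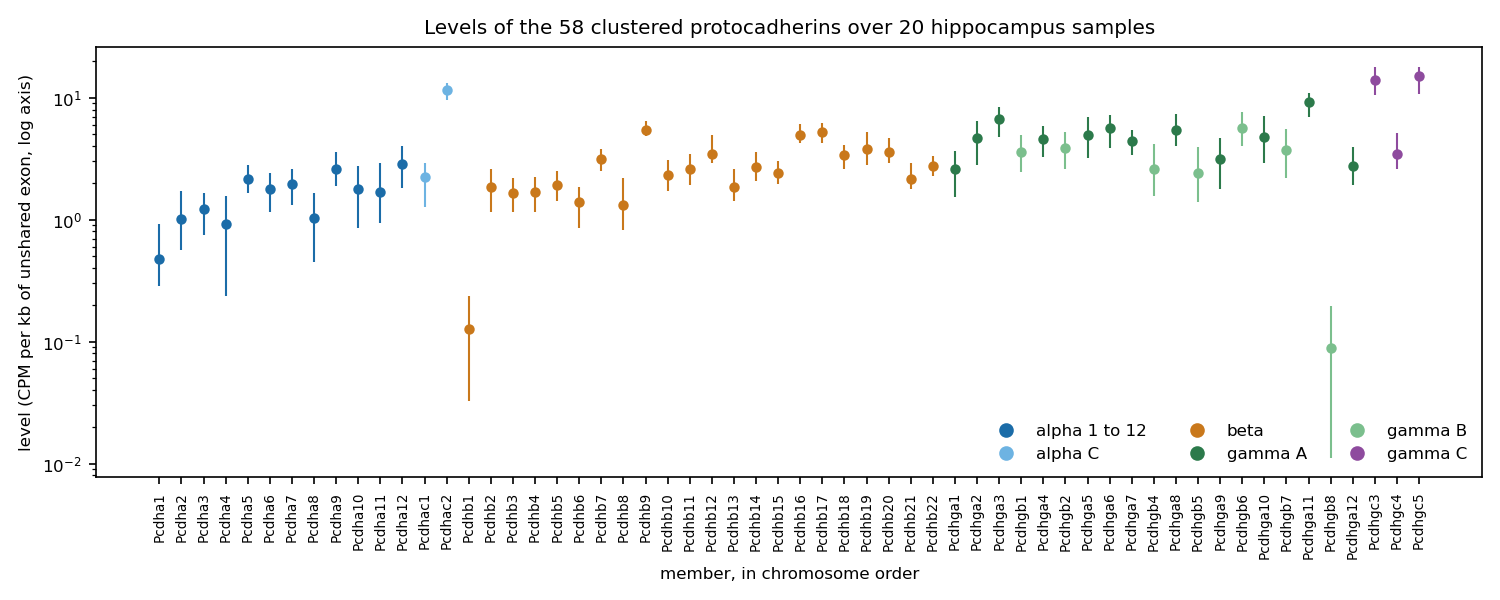
Level of each of the 58 members in chromosome order, as CPM per kb of unshared exon on a log axis. Points are means and bars the range over 20 samples, and colors mark the subclusters. Pcdhgc5, Pcdhgc3 and Pcdhac2 stand highest, with levels of 15, 14 and 11.5, and Pcdhgb8 and Pcdhb1 lowest, with 0.0882 and 0.128.

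Levels differed within each subcluster. Among the alternate alpha members, Pcdha12 had the highest level (2.88 ± 0.655 CPM per kb) and took 14.8% ± 2.14 of their summed level, and Pcdha1, the first gene of the locus, had the lowest (0.472 ± 0.177; 2.40% ± 0.641). Among the beta members, Pcdhb9 was highest (5.44 ± 0.465), close to Pcdhb17 (5.21 ± 0.614) and Pcdhb16 (4.99 ± 0.445). The spreads of these 3 overlapped, and they were not compared within samples. Among gamma A members the level was 9.16 for Pcdhga11 and 2.58 ± 0.523 for Pcdhga1, the lowest. Among gamma B members Pcdhgb6 was highest (5.67 ± 1.03), with 26.0% ± 2.64 of their summed level. The median level was 1.72 for Pcdha1 to Pcdha12, 2.51 for beta, 4.74 for gamma A and 3.61 for gamma B members.

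The gamma cluster held the largest share of the summed level. Per kb of unshared exon that share was 54.7% ± 3.13 (range 49.2% to 61.6%, n = 20), against 29.2% ± 3.10 for the beta and 16.1% ± 0.796 for the alpha cluster. By group the gamma share was 56.1% ± 2.13 in female controls and 57.4% ± 2.96 in females after nPM, and 52.2% ± 2.37 in male controls and 53.0% ± 2.10 in males after nPM (n = 5 each). The beta share was 27.7% ± 2.10, 26.4% ± 2.23, 31.6% ± 2.55 and 31.1% ± 2.23 in the same order. With annotated length as divisor, the gamma members made up 46.1%, the beta members 42.6% and the alpha members 11.3% of the summed mean level. Alpha shares lay between 14.8% and 17.4% over the 20 samples. The shares of a sample sum to a whole, so that a lower gamma share fixes higher shares of the others.

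Members varied between mice of a group no more than genes of like expression. The median biological coefficient of variation (BCV, the fitted relative spread between samples of a group beyond counting noise) was 0.155 over the 57 members, from 0.103 to 0.333, beside 0.175 over all 19797 genes. No member lay above the trend of BCV at its own expression (0 of 57), beside 23.1% of all genes. The median BCV was 0.201 for Pcdha1 to Pcdha12, 0.142 for beta members and 0.143 for the gamma cluster. Fitted over members alone it was 0.134.

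Members of the beta and alpha clusters tended to vary together between mice, whereas gamma members did so no more than alpha with beta members. After centring log2 CPM in each of the 4 groups, Pearson's r over the 20 samples averaged 0.386 between beta members, 0.270 between alpha members and 0.173 between gamma members, beside 0.00151 between all tested genes. Between clusters it averaged 0.180 for alpha with beta, 0.138 for alpha with gamma and −0.0419 for beta with gamma. Of the 1596 pairs of members, 1101 had r above 0. The highest values were those of Pcdha10 with Pcdhac1 (0.876), of Pcdhb19 with Pcdhb20 (0.836) and of Pcdhb21 with Pcdhb22 (0.835), a pair with overlapping exons, and the lowest was that of Pcdhga11 with Pcdhgc4 (−0.751). These correlations are a description over 20 libraries that share depth, base composition and tissue makeup with all genes, and carry no test.

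**Figure D2:**
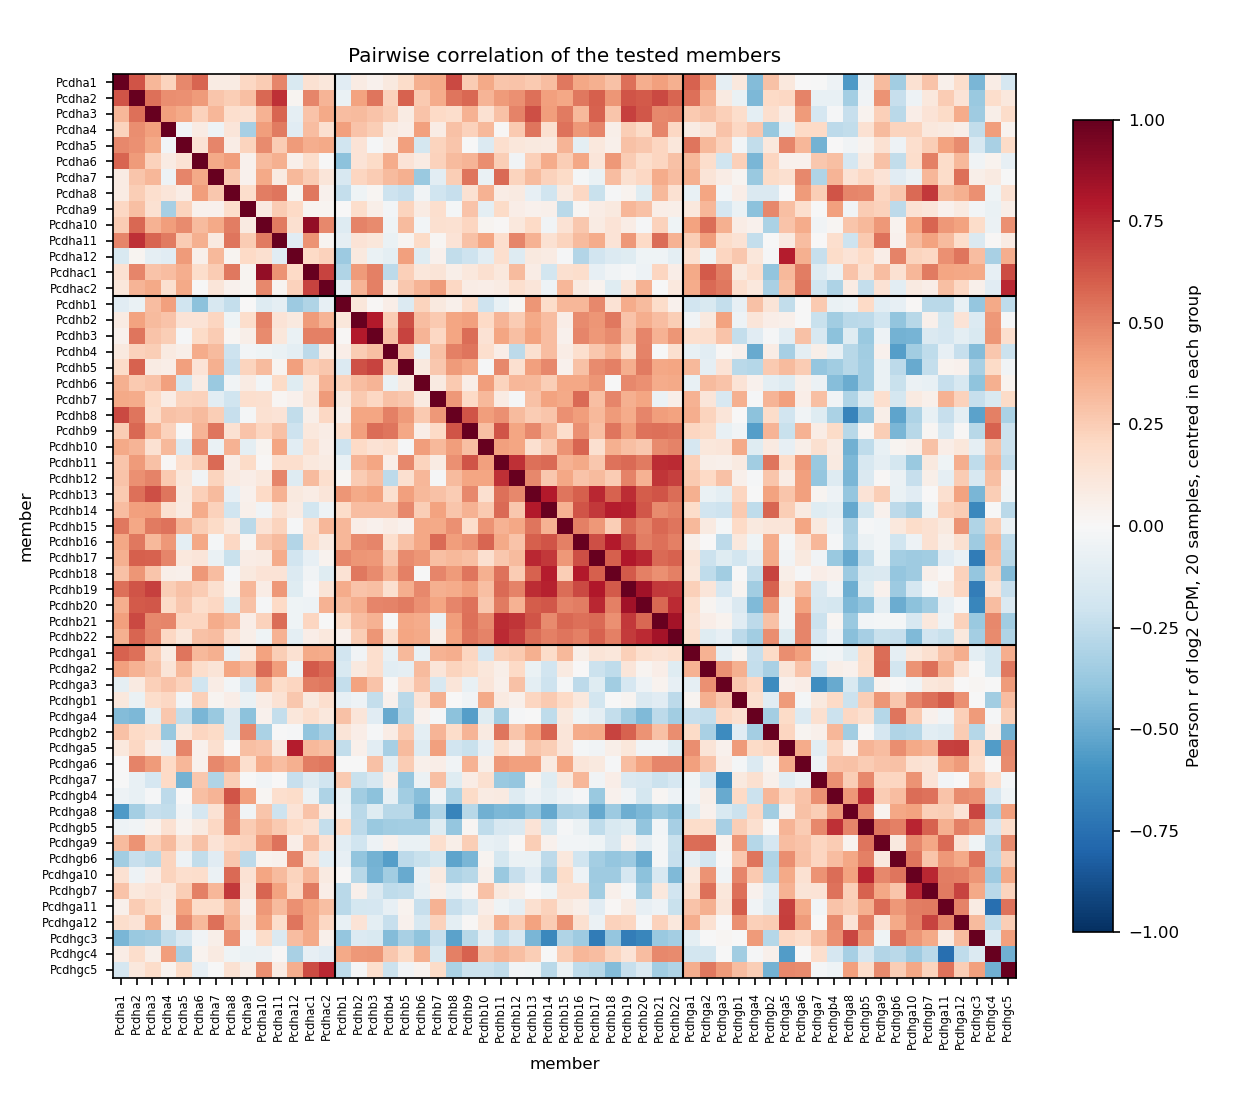
Pearson's r between the 57 tested members over 20 samples, after centring log2 CPM in each group; black lines part the alpha, beta and gamma clusters. The beta block is the most uniformly positive, with an average r of 0.386, and the beta with gamma block averages −0.0419.

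The first question of the study was whether gestational nPM altered adult hippocampal gene expression, with both sexes combined and sex as a covariate. Of the 57 tested members, 1 had a limma p under 0.05 (Pcdhga10, higher after nPM), near the background of 2.10% of all genes. At the study's threshold of 0.005 limma called 0 members, beside 0.141% of all genes, and 0 after Benjamini-Hochberg adjustment over all genes (smallest adjusted p = 1.0). The edgeR quasi-likelihood test and the DESeq2 Wald test called 0 at either threshold. Fitted log2 fold changes ran from −0.20 to 0.17, with a median of 0.035 over members and −0.006 over all genes, and 42 of 57 were above 0. Members are not independent of each other, and 11 of the 57 changed sign without the libraries rich in choroid plexus markers. The 95% interval lay within ±0.5 for 54 of 57 members.

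Pcdhga10 (ENSMUSG00000102222.1, chromosome 18, 37746993 to 37841873) is a gamma A member. Its CPM was 12.1, 12, 14.5, 14.1 and 18.6 in control females 1 to 5 and 16.0, 16.8, 13.7, 15.8 and 16.4 in nPM females. In males it was 7.61, 10.2, 8.71, 9.54 and 10.2 in controls and 10.1, 8.84, 10, 11.3 and 12.4 after nPM. The exposure groups overlapped in both sexes, and control female 5 was the highest of all samples. The log2 fold change of nPM against control was 0.17 with an SE of 0.082 (limma p = 0.0494, adjusted p = 1.0), and two-sided exact permutation tests gave p = 0.278 in females and p = 0.167 in males, where 5 samples against 5 allow no p below 0.00794. The limma call was kept without control female 5, nPM male 2, nPM female 3, control male 5 or control male 2, and was lost without any of the other 15 samples, with log2 fold changes from 0.14 to 0.21.

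Within females, limma gave 2 members a p under 0.05, Pcdhgb6 and Pcdhga6, both higher after nPM, beside 2.00% of all genes. Limma called 0 members at p under 0.005, beside 0.0859% of all genes, as did edgeR and DESeq2, and 0 after adjustment. The median log2 fold change was −0.014 over members and −0.011 over all genes. Of the beta members, 20 of 22 were below 0 (median −0.071), with 0 passing the test, against 7 of 21 gamma members. Beta members varied together (average r of 0.386), so these 20 are not separate observations. Over all members 23 of 57 were above 0 with limma, 29 with edgeR and 31 with DESeq2. Without the libraries rich in choroid plexus markers 21 of the 57 changed sign. The 95% interval lay within ±0.5 for 51 of 57 members.

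Pcdhgb6 (ENSMUSG00000103088.1, 37742094 to 37841873), the most abundant gamma B member, had 15.9, 13.9, 17.3, 14.9 and 15.6 CPM in control females and 19.4, 17.8, 17.1, 16.8 and 17.5 CPM in nPM females. Control female 3 was the only control within the nPM range. The log2 fold change was 0.20 (SE 0.088, limma p = 0.0454; exact permutation p = 0.0238). Pcdhga6 (ENSMUSG00000103793.1, 37707039 to 37841873) had 18.7, 14.7, 16.0, 12.8 and 13.7 CPM in control females and 18.8, 18.8, 17.3, 18.3 and 16.5 CPM in nPM females, with control female 1 within the nPM range. The log2 fold change was 0.24 (SE 0.11, limma p = 0.0468; exact permutation p = 0.0397). In males the log2 fold changes were −0.05 for Pcdhgb6 and 0.03 for Pcdhga6. The Pcdhgb6 call was kept only without control female 3 or nPM female 4, and leaving out each of the other 8 samples ended it (log2 fold changes from 0.16 to 0.24). The Pcdhga6 call was kept only without control female 1, control female 3 or nPM female 5, and leaving out each of the other 7 ended it (0.17 to 0.33).

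Within males, limma gave 2 members a p under 0.05, Pcdhga3 and Pcdhb2, both higher after nPM, beside 4.28% of all genes. At p under 0.005 limma, edgeR and DESeq2 called 0 members, beside 0.207% of all genes for limma, and 0 after adjustment (smallest adjusted p = 0.963). The median log2 fold change was 0.089 over members and −0.001 over all genes, with 47 of 57 members above 0, among them 11 of 12 gamma A and 18 of 22 beta members. These members are not independent of each other, and 18 of the 57 changed sign without the libraries rich in choroid plexus markers. Of the 8 hippocampal markers, 3 were also higher after nPM in males, namely Bcl11b (log2 fold change 0.37, SE 0.084), Neurod2 (0.39, SE 0.12) and Fibcd1 (0.29, SE 0.12), each at a limma p under 0.05 and an adjusted p of 0.963, and 2 of 8 neuronal markers were lower at p under 0.05; their part in the values of the members was not tested. The 95% interval lay within ±0.5 for 46 of 57 members.

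Pcdhga3 (ENSMUSG00000104346.1, 37674307 to 37841873) had 12.5, 13.3, 15.8, 15.6 and 14 CPM in control males and 15.6, 17.3, 16.1, 17 and 19.6 CPM in nPM males, with a narrow overlap. The log2 fold change was 0.26 (SE 0.092, limma p = 0.0153; exact permutation p = 0.0238), and the call was kept with each sample left out (p from 0.0105 to 0.0391). In females it was 0.01, from 16.0 to 21.8 CPM in controls and 17.8 to 21.3 CPM after nPM. Pcdhb2 (ENSMUSG00000051599.4, 37294812 to 37297624) had 4.14, 4.29, 4.87, 3.58 and 3.97 CPM in control males and 6.18, 4.65, 4.73, 4.75 and 5.72 CPM in nPM males, where control male 3 alone reached the nPM range. The log2 fold change was 0.33 (SE 0.13, limma p = 0.0250; exact permutation p = 0.0317). The call was lost without control male 4, control male 5, nPM male 1 or nPM male 5, with log2 fold changes from 0.27 to 0.39 over all samples left out.

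**Figure D3:**
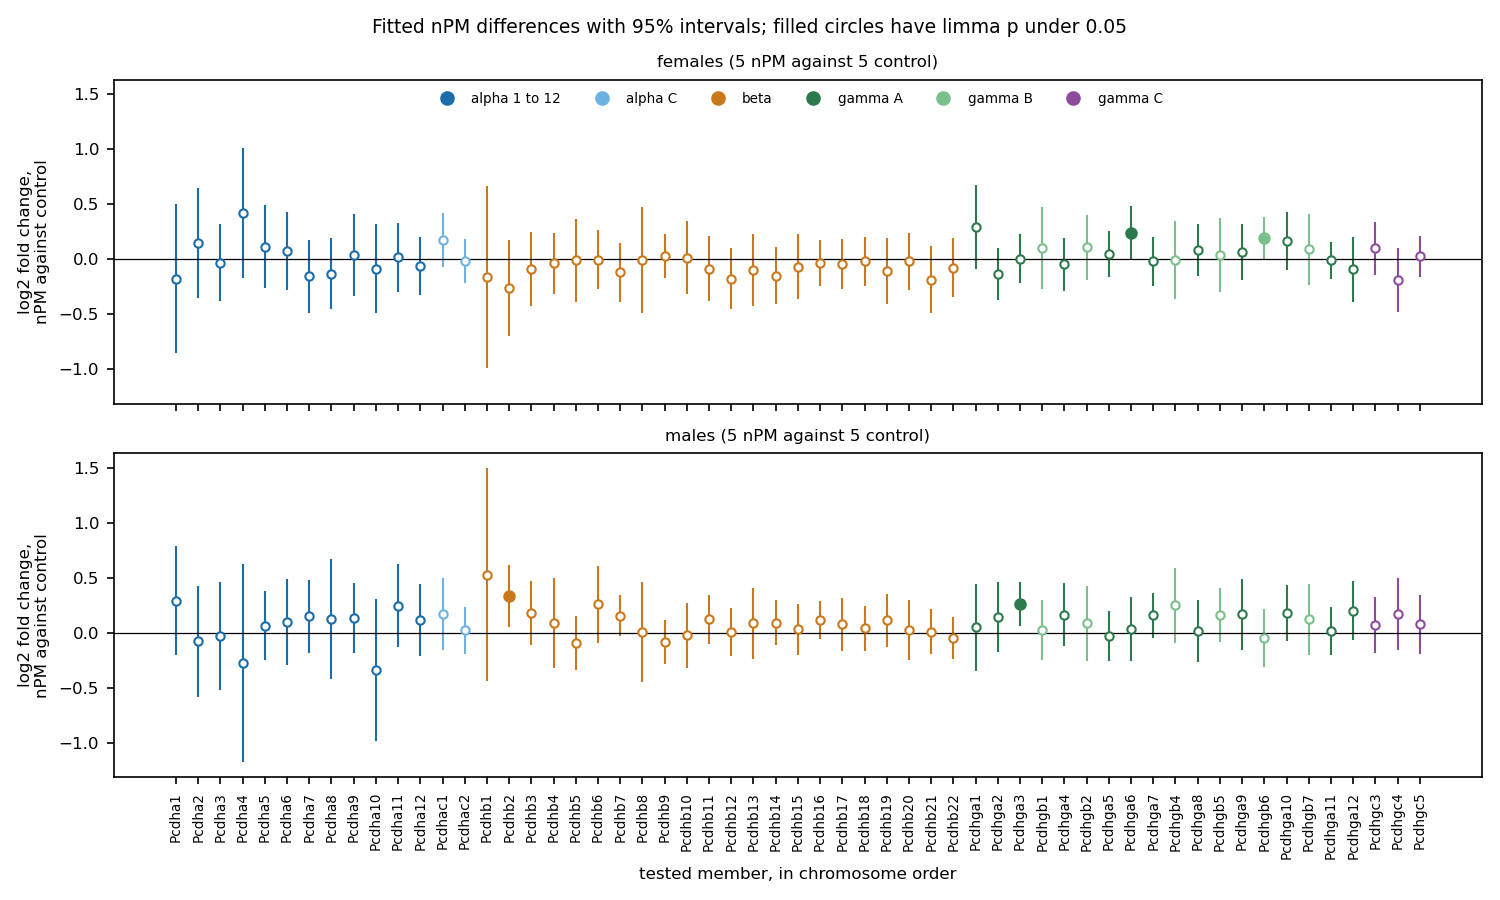
Fitted log2 fold change of nPM against control for the 57 tested members, in females (top) and males (bottom), in chromosome order; bars are 95% intervals and filled circles have limma p under 0.05. In each sex 2 circles are filled, Pcdhga6 and Pcdhgb6 in females and Pcdhb2 and Pcdhga3 in males.

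Whether nPM acted differently in males than in females was tested as an interaction. Limma gave 1 member a p under 0.05, Pcdhb2, beside 3.79% of all genes, and 0 a p under 0.005 (as did edgeR and DESeq2), beside 0.217%, or an adjusted p under 0.05. For Pcdhb2 the log2 fold change in females was −0.26, from 6.69, 7.26, 5.55, 6.98 and 4.80 CPM in controls and 3.27, 6.25, 6.11, 4.87 and 6.40 CPM after nPM. The difference between the sexes was 0.59 (SE 0.24, limma p = 0.0224, adjusted p = 0.987), where exact permutation tests gave p = 0.317 in females and p = 0.0317 in males. Without nPM female 1, the lowest sample, the difference was 0.40 and did not pass. The median interaction was 0.1 over members and 0.013 over all genes.

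None of the 6 calls of an nPM difference passed without the 7 libraries rich in choroid plexus markers, which left 2 control and 3 nPM males and 5 control and 3 nPM females. Their log2 fold changes were then 0.16 to 0.41, with p from 0.0600 to 0.193. Other members passed p under 0.05 instead, namely Pcdhac1 in both sexes (0.29), Pcdhga10 in males (0.46) and Pcdha8 for the interaction (0.85), and 0 passed in females. The part of choroid plexus RNA in the calls was not tested.

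Clustered protocadherins with less RNA in males than in females were 18 of 21 tested gamma members and 7 of 14 alpha members. With exposure as a covariate, limma called 30 of 57 members (52.6%) at an adjusted p under 0.05, beside 40.4% of all genes. Of these, 29 (50.9%) were lower in males, beside 21.6% of all genes, and 1 was higher, beside 18.8% of all genes. The median log2 fold change of males against females was −0.28 over members and 0.02 over all genes. Sex and age differed together, and with age in weeks as a covariate 0 members and 8 of all genes had an adjusted p under 0.05, with 35 of 57 members below 0 (6 with an unadjusted p under 0.05). That fit changed the sign of 16 members, among them 3 of the 30 called, namely Pcdhb6 (from −0.42 to 0.07), Pcdhga2 (−0.32 to 0.10) and Pcdhgc5 (−0.26 to 0.07).

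In the gamma cluster 18 of 21 members were lower in males and all 21 fitted values were below 0. These included 11 of 12 gamma A members, 5 of 6 gamma B members, and Pcdhgc3 (log2 fold change −0.29) and Pcdhgc5 (−0.26). Pcdhga1 (−0.11), Pcdhgb1 (−0.26) and Pcdhgc4 (−0.15) did not pass, with adjusted p of 0.514, 0.0585 and 0.292. In the alpha cluster 7 of 14 were lower in males and all 14 fitted values were below 0. Of the 7, Pcdha8 had the lowest value (−0.99), followed by Pcdha11 (−0.69), Pcdha10 (−0.55) and Pcdha12 (−0.53), and Pcdhac1 (−0.44), Pcdha6 (−0.34) and Pcdha7 (−0.31) completed them. Pcdha4, also at −0.55, did not pass (adjusted p = 0.0866). Pcdhac2, the abundant alpha C-type member, had a log2 fold change of −0.07 (adjusted p = 0.426), with 31.4 to 40.3 CPM in females and 29.2 to 40.3 CPM in males.

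In the beta cluster 4 of 22 members (18.2%) were lower in males and 1 was higher, a share lower that did not exceed the 21.6% of all genes. Those lower were Pcdhb6 (log2 fold change −0.42), Pcdhb3 (−0.28), Pcdhb15 (−0.21) and Pcdhb12 (−0.20, adjusted p = 0.0499). Pcdhb18, at 0.20 (adjusted p = 0.0218), had 13.0 to 18.1 CPM in females and 14.6 to 20.5 CPM in males, with wide overlap. Along the cluster 3 of the first 16 members (Pcdhb1 to Pcdhb16) and 5 of the last 6 (Pcdhb17 to Pcdhb22) were above 0. The beta cluster as a whole summed to 264 ± 25.9 CPM in females and 260 ± 19.4 CPM in males (SD, n = 10), while the gamma cluster summed to 397 ± 17.8 CPM (370 to 419) in females and 309 ± 27.2 CPM (269 to 362) in males.

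**Figure D4:**
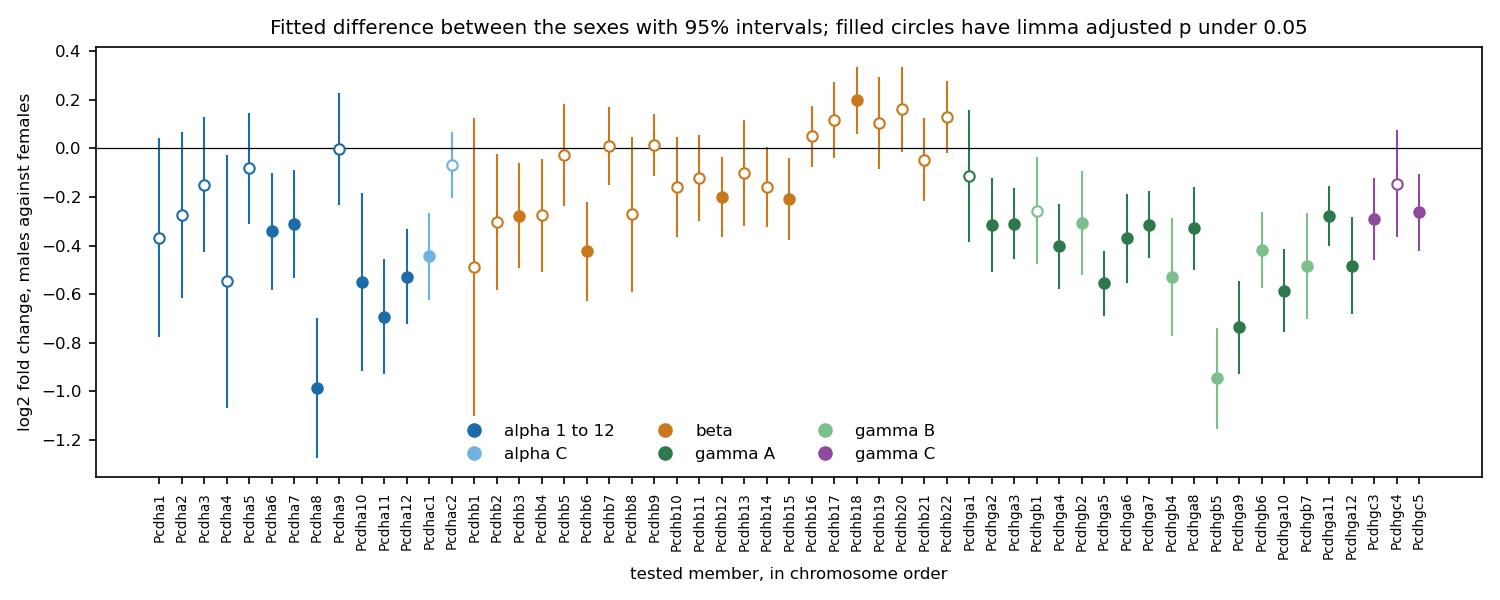
Fitted log2 fold change of males against females for the 57 tested members in chromosome order; bars are 95% intervals and filled circles have limma adjusted p under 0.05. All alpha and gamma values lie below 0, with the lowest at −0.99 (Pcdha8) and −0.95 (Pcdhgb5), and 8 of 22 beta values lie above 0.

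The females and males of 4 members did not overlap, all 4 lower in males (0 were higher), beside 3.14% of all genes that were lower and 1.67% that were higher without overlap. These were Pcdhgb5, Pcdhga5, Pcdhga9 and Pcdha8, 4 of the 5 members with the smallest p. Pcdhgb5 (ENSMUSG00000103749.1, 37731009 to 37841873) had 10.9 to 18.1 CPM in females (median 14.3, n = 10) and 6.43 to 9.26 CPM in males (median 7.55, n = 10). The log2 fold change was −0.95 (SE 0.10, adjusted p = 2.34e-06). Pcdhga5 (ENSMUSG00000103567.1, 37694380 to 37841873) had 13.5 to 17.6 CPM in females (median 14.8) and 8.08 to 11.9 CPM in males (median 10.1), a log2 fold change of −0.56 (SE 0.065, adjusted p = 5.25e-06). The spread was small among its control males, from 9.64 to 10.6 CPM.

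Pcdhga9 (ENSMUSG00000102440.1, 37736936 to 37841870) had 11 to 16.1 CPM in females (median 13.7) and 6.22 to 10.3 CPM in males (median 8.11), a log2 fold change of −0.74 (SE 0.092, adjusted p = 8.92e-06). Pcdha8 (ENSMUSG00000103800.1, 36992371 to 37187657), a scarce member, had 2.72 to 4.09 CPM in females (median 3.43) and 1.12 to 2.60 CPM in males (median 1.60), a log2 fold change of −0.99 (SE 0.14, adjusted p = 2.30e-05). Pcdhga10 had 12 to 18.6 CPM in females (median 15.2) and 7.61 to 12.4 CPM in males (median 10), with nPM male 5 alone above the lowest females, and a log2 fold change of −0.59 (SE 0.082, adjusted p = 2.31e-05). For each of these 5 members, exact permutation tests gave p = 0.00794, the smallest possible, among controls and among nPM samples. The 5 were chosen by their p over these same samples. For the 4 without overlap that outcome was fixed in advance, so these tests add no separate support.

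**Figure D5:**
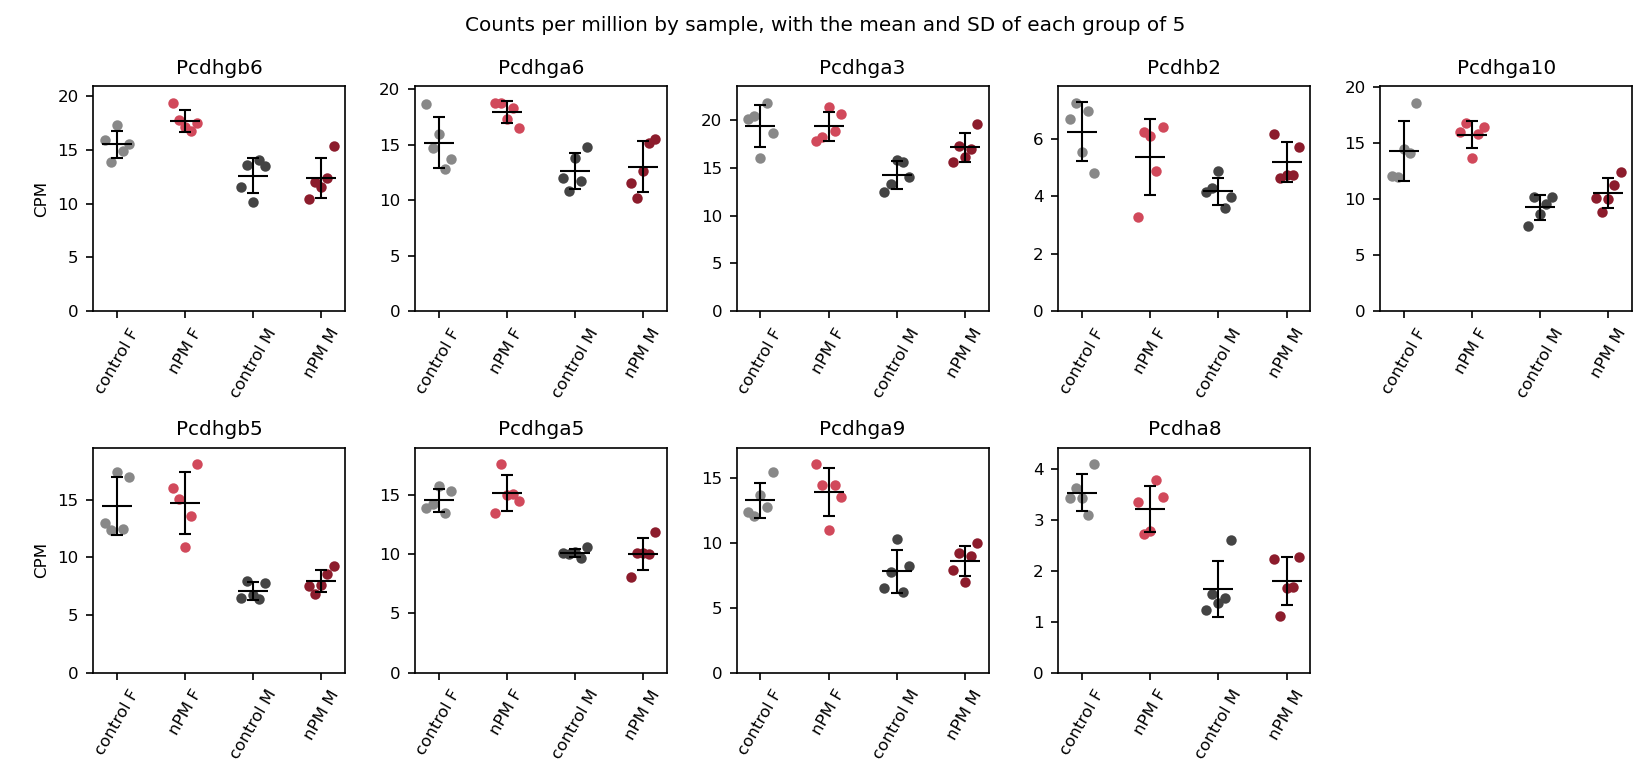
CPM of the members with the smallest p in the nPM comparisons (upper row; Pcdhga10 is also among the 5 of the sex comparison) and in the sex comparison (lower row), by sample; crosses are the mean and SD of each group of 5. The nPM and control points of a sex overlap in the upper row, whereas the male points of Pcdhgb5, with 6.43 to 9.26 CPM, all lie under the female points.

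Fitted in controls alone, 20 of 57 members were lower in males at an adjusted p under 0.05, beside 15.6% of all genes, and in nPM samples alone 9 of 57, beside 7.21%. The medians of the log2 fold change were −0.29 and −0.21. Without the 7 libraries rich in choroid plexus markers, of which 5 were male, 17 of 57 members were lower in males and 0 higher, the median was −0.26, and 11.3% of all genes were lower. Without control male 1 and nPM female 4, 27 members were lower, beside 22.1% of all genes, and 1 was higher.

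Transcripts of gamma members were richer in GC (median 53.1%) than those of alpha (47.3%) and beta members (46.0%), and over the 57 members Spearman's rho of the sex difference with GC was −0.472, a description over neighboring genes. After the trends of each library with GC and with length were removed, 28 members were lower, beside 20.5% of all genes, and 1 higher, and the median was −0.27. Other cell markers also differed. Of 8 markers each, 5 endothelial were lower in males (167 to 247 CPM summed in females, 129 to 165 CPM in males) and 4 microglial were higher (216 to 331 and 281 to 329 CPM). Of the 8 neuronal markers 2 were lower and 0 higher (4613 to 6641 CPM in females, 5474 to 7971 CPM in males), and of the 8 hippocampal markers 3 were lower (Zbtb20, Grik4 and Neurod2) and 0 higher. Of 8 astrocyte markers 4 were higher and 1 lower, of 8 oligodendrocyte markers 3 were higher, and of 7 tested markers of CA3 2 were lower. Among all genes 21.6% were lower and 18.8% higher. The part of these cell types in the sex differences was not tested.

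Genes that act on protocadherin promoters were examined next. Of 28 regulators, limma gave 0 a p under 0.05 for nPM in both sexes, females or males or for the interaction. Between the sexes 10 were lower (35.7%) and 2 higher (7.14%) in males at an adjusted p under 0.05, beside 21.6% and 18.8% of all genes. The median log2 fold change was −0.01, and the share called in either direction, 42.9%, was near the 40.4% of all genes. The DNA methyltransferases Dnmt3a (−0.34, SE 0.066) and Dnmt3b (−0.69, SE 0.16), the 5-methylcytosine dioxygenases Tet2 (−0.47) and Tet3 (−0.60), the histone H3K9 methyltransferases Setdb1 (−0.34) and Ehmt1 (−0.34), the G9a partner Wiz (−0.66), the Setdb1 partner Atf7ip (−0.15) and the cohesin loaders Nipbl (−0.18) and Mau2 (−0.15) were lower. The cohesin subunits Rad21 (0.16) and Stag2 (0.20) were higher. With age as a covariate, 8 of all genes passed.

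Of 25 partners and signaling genes, Psen2, a presenilin of the γ-secretase that cleaves protocadherins, was lower after nPM in both sexes (log2 fold change −0.16, SE 0.067), and Ret, a receptor tyrosine kinase that binds them, was lower in females (−0.56, SE 0.23), both at a limma p under 0.05 with an adjusted p of 1.0. Between the sexes 8 were higher (32.0%) and 7 lower (28.0%) in males, beside 18.8% and 21.6% of all genes. Marcks, a substrate of protein kinase C (0.58, SE 0.071), and Rac1, a small GTPase (0.23, SE 0.040), were among the higher, and Wasf1, a subunit of the WAVE complex (−0.53, SE 0.10), and Ptk2b, the kinase Pyk2 (−0.40, SE 0.10), among the lower.

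The non-clustered protocadherins, of which 13 were tested, lie outside the alpha, beta and gamma clusters. The highest per kb of annotated exon were Pcdh9 (48.8 ± 5.63), Pcdh20 (39.5 ± 7.30) and Pcdh1 (23.8 ± 6.71 CPM per kb, n = 20). By annotated length, Pcdhgc5 reached 9.03, a divisor that includes shared exons, which on the reading above gave no counts. Per kb of unshared exon its level was 15. Pcdh12 alone had a p under 0.05 for nPM (log2 fold change 0.84 in both sexes, SE 0.35, adjusted p = 1.0), at a mean of 0.362 CPM. Between the sexes Pcdh1 was lower in males (−0.58, SE 0.12), and Pcdh7 (0.41), Pcdh10 (0.27), Pcdh18 (0.46) and Pcdh19 (0.28) were higher, 5 of 13 called in all (38.5%) beside 40.4% of all genes. Of 14 genes flanking the clusters, Hars, a histidyl-tRNA synthetase, was lower after nPM in both sexes (−0.13, SE 0.059, adjusted p = 1.0), and between the sexes 6 were higher (42.9%) and 2 lower (14.3%) in males, beside 18.8% and 21.6% of all genes. Hars (0.25), Zmat2 (0.27), Ndufa2 (0.46), Wdr55 (0.24), Taf7 (0.27) and Hdac3 (0.12) were the higher and Hars2 (−0.22) and Arap3 (−0.47) the lower.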

How the data were processed

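Libraries were made by the authors with the RiboZero Gold kit, which removes ribosomal RNA. Reads were checked with FastQC, trimmed with Trimmomatic where needed, placed on mm10 by HISAT2 and summed over Gencode genes by featureCounts 1.5.0-p3. They deposited whole-number counts without normalization, with gene lengths and an RPKM column that holds the authors' mean over samples, used in no test. Total counts were 19092067 to 38663408 per sample. Groups, replicate numbers and ages came from the labels.

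The counts were scaled by TMM (edgeR 4.0.16), and genes with too few counts were removed by filterByExpr (minimum count 10, minimum total 15). limma-voom (limma 3.58.1, R 4.3.3; offset 0.5) was fitted over all 19797 genes that were left, and tested on simulated data. p-values are two-sided, adjusted by the Benjamini-Hochberg method over all genes, and measure the spread between these samples. The litter of each sample was not given, so mice that shared a dam were treated as independent. Replicates differed by 14.1 to 76.7 times counting noise over 40 pairs, so none was a duplicate. Levels used exon bases of Gencode M21 and exact permutation tests scipy 1.17.1; figures used matplotlib 3.10.9. Alternatives were edgeR's quasi-likelihood test, DESeq2 1.42.0, RLE scaling, other filters, protein-coding genes, age, a replicate block, quality weights, 1 fit of the 4 groups and each sample left out. Those on choroid plexus markers, outlying libraries, GC and length, and the sexes within an exposure were added after the data were seen. Named were members with p under 0.05 in a fit (per-sample values for the 5 smallest p), the highest and lowest of each subcluster, all C-type members, list genes with p under 0.05 and the 3 highest non-clustered protocadherins; Pcdhb16 and Pcdhb17 by level and the pairs of members with extreme correlations were singled out after their values were seen. The members and all gene lists were chosen with earlier results of these data known.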

Additional observations from a re-analysis of the deposited data

Results flagged for a closer look

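Pcdha8 had 2.60 CPM in control male 5, whereas the next control male had 1.54 CPM. The gap took a share of 0.777 of the range of the 5 control males, above Dixon's critical value of 0.71. Pcdhgc4 had 17.5 CPM in nPM male 1 and 11.1 CPM in the next nPM male, a share of 0.885. Over 17 items, 68 groups of 5 were examined in this way and 2 passed, where chance at 1 in 20 gives 3.4. The Pcdhb2 interaction test gave limma p = 0.0224 (adjusted p = 0.987), beside exact permutation p = 0.0317 in males and 0.317 in females. The nPM log2 fold changes were 0.33 in males and −0.26 in females. It was the 1 interaction call among 57 members (1.75%), beside 3.79% of all genes. The call was lost without nPM female 1, without the libraries rich in choroid plexus markers and with a replicate block. A difference between the sexes was therefore not established.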

How the results depend on the processing

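With age as a covariate 16 of 57 sex differences changed sign, 3 of them called (Pcdhb6, Pcdhga2, Pcdhgc5); those with values by sample kept theirs. For nPM in both sexes the 1 member called became 0 with edgeR, with DESeq2, with protein-coding genes only and without control male 1 and nPM female 4, became 2 with no filter, and ran from 0 to 3 with each sample left out. In females the 2 called became 1 with no filter or a stricter filter and 0 with age as a covariate, with 1 fit of the 4 groups or without the libraries rich in choroid plexus markers and 3 with sample quality weights or without control male 1 and nPM female 4 (0 to 3 with each sample left out). In males the 2 became 3 with no filter, 1 with 1 fit of the 4 groups and 1, a different member (Pcdhga10), without the choroid-rich libraries (1 to 2 with each sample left out). The 1 interaction became 3 with sample quality weights or without control male 1 and nPM female 4 (0 to 3 with each sample left out). The 30 sex differences became 0 with age as a covariate, 17 without the choroid-rich libraries and 9 in nPM samples alone (25 to 32 with each sample left out). The level of Pcdhgc5 was 9.03 in place of 15 per kb of annotated length, and the median BCV 0.134 in place of 0.155 when fitted over members. The cause of these shifts was not tested. Deviations of control and nPM samples with the same sex and number correlated between −0.363 and 0.156, and over 0.1 in 3 of 10 pairs. Whether samples with the same number shared a batch or handling was not tested, since pairs of unlike number were not compared. With a replicate block the calls were 0 in both sexes, 0 in females, 1 in males, 0 for the interaction and 28 between the sexes. Depth limited the scarcest members, Pcdhgb8, Pcdhb1 and Pcdha4, with at most 22 counts per sample.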
